A study of Homo sapiens with 6 samples.

Results

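Laminins and other glycoproteins of the extracellular matrix were measured in the human embryonic stem cell (hESC) line H9, a widely used established line, before differentiation and in mesodermal progenitors derived from it. A list of 44 gene symbols defined the group. It held laminin chains, nidogens and other basement membrane proteins (called linkers here), and fibronectin and other adhesive glycoproteins. It also held elastic fibre and microfibril proteins, tenascins, thrombospondins, SPARC proteins and matrilins. A gene was counted as measured where at least 1 probe set of the array was annotated to its symbol alone, which gave 42 of the 44 members, with 96 probe sets, among 19775 genes in all. VTN has only probe sets shared with another symbol, and VTN and LAMA3 are not analysed here.

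The progenitors were cells of day 3.5 in Stemline II medium supplemented with BMP4, VEGF, FGF2 and activin A, isolated by flow cytometry for lacking CD326 (EPCAM) and carrying CD56 (NCAM1). The stem cells carry no treatment in the labels. Each group had 3 one-colour arrays, and unsorted day 3.5 cells are not analysed here, so that the sort and the differentiation cannot be told apart. Both groups come from a single cell line. In such bulk RNA, a change in the share of cells that express a gene and a change in RNA per cell cannot be told apart.

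The matrix is made of a thin basement membrane and a looser interstitial mesh. Laminins are trimers of an alpha, a beta and a gamma chain that polymerise on the cell surface, where integrins and dystroglycan hold them, and nidogens tie that sheet to the collagen IV network. Fibronectin, fibrillins and their partners form fibrils between cells, and thrombospondins, tenascins and SPARC proteins act as modulators of adhesion and growth factor supply. When epithelial cells of the epiblast turn into migrating mesoderm, they leave a laminin-rich basement membrane and move through a fibronectin-rich matrix.

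The labelled cell types were checked with marker lists, which were chosen with earlier results of these data known. A linear model was fitted to each gene with limma, which shares variance information across genes. All 12 mesoderm markers rose and all 11 measured stem cell markers fell at an adjusted p under 0.05. These lists hold the sorted antigens NCAM1 and EPCAM, whose direction the gate favoured. Without them 11 of 11 mesoderm markers rose and 10 of 10 stem cell markers fell, and the summed intensity of the mesoderm list was 245 to 319 in hESC and 24140 to 24500 in the progenitors. Of 15 endothelial and blood markers 9 rose and none fell, with sums of 3547 to 3827 in hESC and 7478, 7212 and 14310 on progenitor arrays 3, 2 and 1. Of 10 fibroblast markers 5 rose and 1 fell (sums of 6946 to 8436 and 13410 to 13500), of 8 endoderm markers 3 rose and 1 fell (487 to 551 and 543 to 672), of 11 trophoblast and amnion markers 6 rose and 2 fell (2242 to 2506 and 3804 to 5130), and of 9 neural markers 2 rose and 2 fell (3291 to 3515 and 3396 to 4004). Over all genes 47.9% were called, 26.7% higher and 21.2% lower. The share called was 60% for endothelial and blood, 60% for fibroblast and 72.7% for trophoblast and amnion markers. For endoderm and neural markers it was 50% and 44.4%, near the share of all genes. SOX17, which rose, is in both the endothelial and the endoderm list. The endoderm marker TTR stood at 4.09 on hESC arrays 1 and 3, the log2 level of an intensity of 1. The part of these other cell types in the matrix results was not tested, beyond the values given with progenitor array 1 left out.

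Most matrix glycoprotein genes differed between the groups, and more of them were higher than lower in the progenitors. Of the 42 measured members 21 rose, 10 fell and 11 did not pass, so that 73.8% were called against 47.9% of all genes. Members called higher made up 50% against 26.7% of all genes, and members called lower 23.8% against 21.2%. Changes of 2-fold or more were called for 16 members upward (9.39% of all genes) and 6 downward (7.22% of all genes), together 52.4% of the members against 16.6% of all genes. At 8-fold or more there were 7 members, NID2, MFAP4, EGFLAM, TGFBI, EFEMP2 and TNC upward and THBS2 downward, where 1.92% of all genes were as far apart. This count depended on the pseudocount: it was 8 members at a pseudocount of 1 (NPNT in addition, 3.25% of all genes) and 3 at 64 (NID2, TGFBI and THBS2, 0.85% of all genes). The groups did not overlap, all 3 values of one exceeding all 3 of the other, in 34 members (81.0%), against 57.3% of all genes. The median change was 0.36 on the log2(intensity + 16) scale against 0.04 over all genes, and the median size of a change, whatever its direction, was 1.14 against 0.32. The share called depended on brightness. Without the dimmest 30% of genes 64.5% of all genes were called, and 31 of 39 members tested. Without the dimmest 50% these were 69.4% of all genes and 24 of 27 members. The shares of all genes given elsewhere cover genes of every level.

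**Figure D1:**
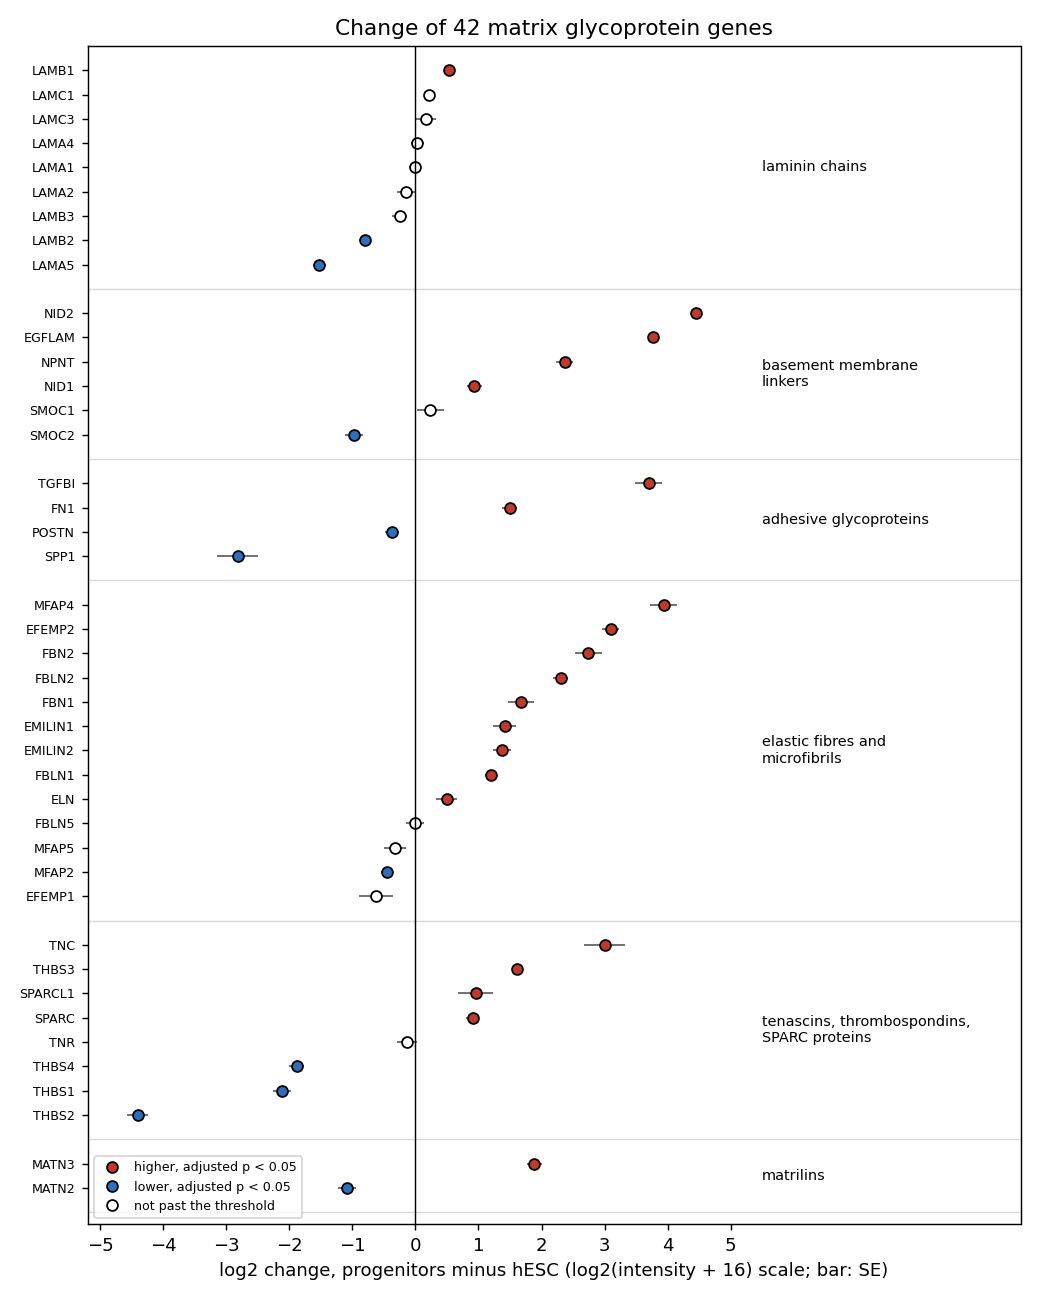
Log2 change of each of the 42 measured genes, progenitors minus hESC, on the log2(intensity + 16) scale, with its SE as a bar (n = 3 arrays per group) and genes grouped by role. Filled points passed an adjusted p of 0.05; the laminin chains lie between -1.52 and 0.53, whereas the linkers, elastic fibre genes and thrombospondins spread from -4.41 to 4.45.

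A log2 change is the progenitor mean minus the hESC mean after quantile normalization, with adjusted p-values from limma over all 19775 genes. Genes that were dim in hESC, and SMOC2, which was dimmer in the progenitors, depended on the pseudocount. At 64 in place of 16 the change was 2.43 for EGFLAM, 1.23 for NPNT, 0.74 for EMILIN1, 1.19 for MATN3, 0.99 for THBS3 and -0.55 for SMOC2. At a pseudocount of 1 it was 3.76 for NPNT. The share of higher genes among all genes called was 55.8%. It moved to 37.3% when each array was centred on its median gene and to 81.9% with scaling on the arrays' hybridization controls. Over all genes the median change was then -0.15 and 0.32. Members whose call or direction turned under these scalings are named beside their values.

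The promoters of 5 members with large changes in either direction are shown first, as the stretches next to the start sites of genes that moved together or apart. The 5 were picked without a fixed rule. Other members changed more than some of them, such as MFAP4 upward and THBS1 downward. Each run holds the 250 bases before the RefSeq start of the gene in GRCh38.p14, 5′ to 3′ on the gene's strand. Capitals mark matches, on either strand, to the motifs TATAAA for the TATA box, CACCTG for the E-box read by SNAI and ZEB repressors, AGATAA for a motif of the GATA factors and GGGCGG for the GC box, with overlapping matches each counted. NID2 (chr14:52069060-52069309, minus strand) and TGFBI (chr5:136028738-136028987, plus strand) rose. THBS2 (chr6:169253847-169254096, minus strand), SPP1 (chr4:87975464-87975713, plus strand) and LAMA5 (chr20:62367313-62367562, minus strand) fell.
NID2: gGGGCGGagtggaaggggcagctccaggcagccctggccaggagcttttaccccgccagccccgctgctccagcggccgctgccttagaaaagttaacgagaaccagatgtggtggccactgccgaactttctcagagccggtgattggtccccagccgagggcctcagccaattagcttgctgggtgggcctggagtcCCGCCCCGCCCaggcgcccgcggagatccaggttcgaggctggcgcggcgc
TGFBI: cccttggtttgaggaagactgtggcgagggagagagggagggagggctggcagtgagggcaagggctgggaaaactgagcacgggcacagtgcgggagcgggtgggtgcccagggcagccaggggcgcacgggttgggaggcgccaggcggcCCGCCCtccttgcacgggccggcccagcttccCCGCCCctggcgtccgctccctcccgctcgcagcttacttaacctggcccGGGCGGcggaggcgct
THBS2: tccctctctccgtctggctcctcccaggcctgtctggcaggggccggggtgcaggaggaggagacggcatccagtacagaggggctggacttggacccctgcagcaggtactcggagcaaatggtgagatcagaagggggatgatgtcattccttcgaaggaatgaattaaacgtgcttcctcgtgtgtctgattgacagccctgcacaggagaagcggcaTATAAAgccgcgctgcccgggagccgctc
SPP1: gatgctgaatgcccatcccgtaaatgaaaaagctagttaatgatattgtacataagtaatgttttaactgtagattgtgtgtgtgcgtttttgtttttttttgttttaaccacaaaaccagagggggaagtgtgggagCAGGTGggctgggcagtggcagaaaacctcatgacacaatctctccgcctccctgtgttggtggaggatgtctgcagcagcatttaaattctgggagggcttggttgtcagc
LAMA5: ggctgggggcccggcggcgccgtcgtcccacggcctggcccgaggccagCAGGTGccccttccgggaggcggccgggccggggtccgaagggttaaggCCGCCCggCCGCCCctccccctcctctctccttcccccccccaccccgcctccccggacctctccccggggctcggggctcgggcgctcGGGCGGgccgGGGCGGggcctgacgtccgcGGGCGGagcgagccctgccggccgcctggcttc

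The NID2 and TGFBI windows each hold 3 GC boxes and none of the other motifs. THBS2 has a TATA box whose first base lies 29 bases before the start and no GC box, SPP1 has an E-box at 112 bases and a G plus C content of 44.8%, and LAMA5 has an E-box at 201 bases, 5 GC boxes and a G plus C content of 82.8%. Of the 33 measured members with an entry in the promoter table, 24 held a GC box (72.7%), against 42.6% of all 35116 promoters and 56.3% of the 15384 promoters of genes tested here. Among these 33 the GC box was found in 15 of 18 higher, 5 of 9 lower and 4 of 6 members that did not pass. The E-box was found in 1 of 18 higher, 3 of 9 lower and 2 of 6 other members, or 18.2% of members against 17.5% of all promoters and 16.8% of those of tested genes. The TATA box was in 4 of the 33 (12.1%, against 10.7% of all promoters and 8.31% of those of tested genes) and the GATA motif in 1 (3.03%, against 9.17% and 6.81%). The motif shares among all genes called higher or lower were not computed, so a link of a motif with direction was not tested. A match describes these letters and is not evidence of a bound factor.

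Among the laminin alpha chains, LAMA5 was lower in the progenitors and the other 3 measured chains did not pass. LAMA5, a chain of many epithelial basement membranes and of the laminins on which human stem cells are cultured, stood at 11.72, 11.74 and 11.47 on the hESC arrays and at 10.12, 10.14 and 10.11 on the progenitor arrays (log2 levels of arrays 1, 2 and 3). The groups did not overlap, and LAMA5 fell by 1.52 (SE 0.10, n = 3 per group, adjusted p = 1.57e-05), a 2.87-fold decrease. LAMA1, the alpha chain of the earliest embryonic basement membranes, was at 10.67, 10.83 and 10.55 in hESC and at 10.64, 10.69 and 10.69 in the progenitors. Its groups overlapped, with a difference of -0.01 (SE 0.10, adjusted p = 0.949). With scaling on hybridization controls the LAMA1 difference was 0.43 and passed (adjusted p = 0.013).

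A difference between 2 genes within an array is free of any shift common to that array. LAMA1 minus LAMA5 was -1.05, -0.91 and -0.92 in hESC and 0.52, 0.55 and 0.59 in the progenitors, a relative shift of 1.51 towards LAMA1. Since each probe set has its own response, the sign of such a difference does not say which chain was more abundant. The shift itself was larger than the spread within either group.

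LAMA2, the chain of muscle laminins, and LAMA4, a chain of vessel walls, were dim in both groups and did not pass. LAMA2 differed by -0.15 (SE 0.14) at a mean level of 6.60 in hESC, and LAMA4 by 0.03 (SE 0.11) at 5.52. For each gene the groups overlapped. Of the 4 other LAMA4 probe sets, 1 was lower by 0.79 (adjusted p = 0.0349 over all probe sets) and 3 did not pass. The sign of LAMA4 turned with median centring (-0.22). LAMA2 passed, at -0.35 (adjusted p = 0.0496), when arrays were centred on the median gene, and its sign turned with scaling on hybridization controls (0.23).

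The beta chains moved apart. LAMB1, the beta chain of most embryonic laminins, was at 10.21, 10.34 and 10.24 in hESC and at 10.76, 10.82 and 10.79 in the progenitors, without overlap. LAMB1 rose by 0.53 (SE 0.08, adjusted p = 0.0012), and its other probe set rose by 0.45. LAMB2, a beta chain of synapses and of the kidney filter, was at 9.62, 9.69 and 9.45 in hESC and at 8.71, 8.78 and 8.88 in the progenitors, and fell by 0.80 (SE 0.10, adjusted p = 4.10e-04). The rise of LAMB1 was 0.30 with median centring and 0.97 with scaling on hybridization controls, under which LAMB2 differed by -0.30 without passing (adjusted p = 0.0647). LAMB1 minus LAMB2 within an array was 0.59, 0.65 and 0.79 in hESC and 2.05, 2.04 and 1.90 in the progenitors, a shift of 1.32.

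LAMB3, a chain of epithelial anchoring laminins, was dim, at a mean of 5.35 in hESC and 5.10 in the progenitors. Its difference of -0.25 (SE 0.12, adjusted p = 0.129) did not pass, and it passed with median centring (-0.49) and without normalization between arrays (-0.34).

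Neither gamma chain passed. LAMC1, the gamma chain that most laminins share, was at 11.17, 11.22 and 11.17 in hESC and at 11.50, 11.38 and 11.36 in the progenitors. The groups did not overlap, but the difference of 0.22 (SE 0.08) missed the threshold at an adjusted p = 0.0575. It was 0.0011 with median centring. It passed with scaling on hybridization controls (0.67), at a pseudocount of 64 (0.22, adjusted p = 0.0143), with a trended variance (0.22, adjusted p = 0.00786) and when the dimmest 30% or 50% of genes were left out. LAMC3, a less common gamma chain, differed by 0.16 (SE 0.16, adjusted p = 0.437) with overlapping groups, and by 0.66 with a call under scaling on hybridization controls.

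**Figure D2:**
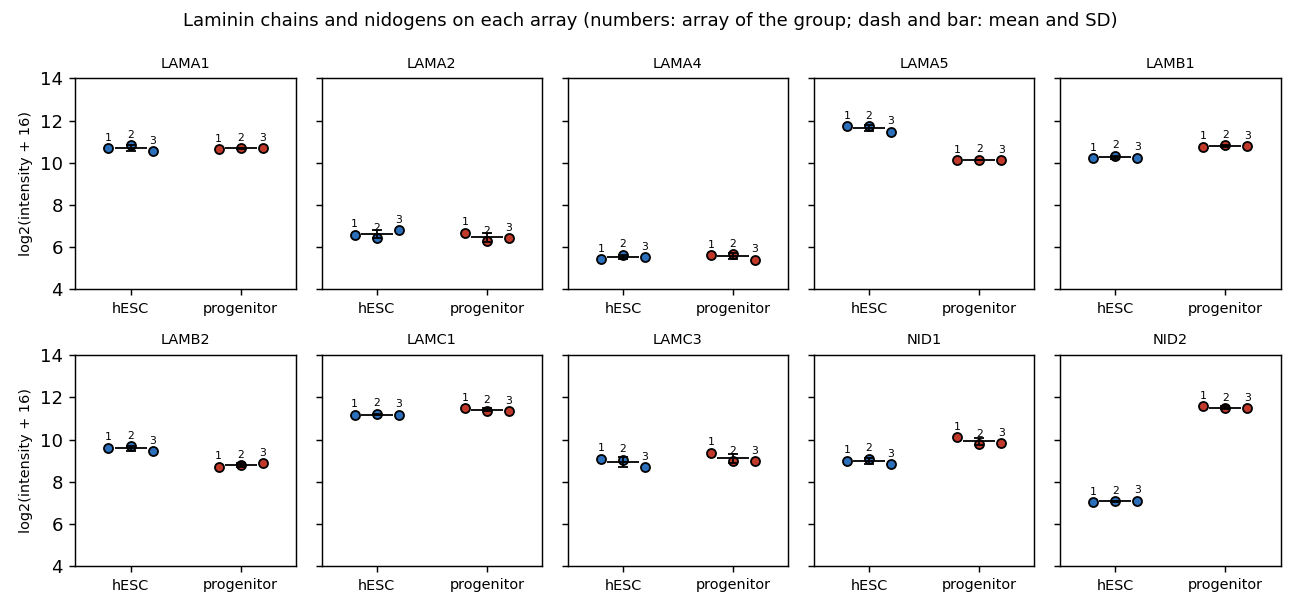
Log2(intensity + 16) levels of 8 laminin chains and both nidogens on each of the 6 arrays after quantile normalization. Numbers name the array within its group, dashes the group mean and bars the SD; the LAMA5 points drop from a mean of 11.65 to 10.12 and the NID2 points rise from 7.06 to 11.52, while the LAMA1 groups overlap.

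The 6 basement membrane proteins grouped as linkers were NID1, NID2, EGFLAM, NPNT, SMOC1 and SMOC2. Of these 4 rose, 1 fell and 1 missed the threshold (83.3% called against 47.9% of all genes, 66.7% higher against 26.7%). Their median change was 1.65 against 0.04 over all genes. NID2, a nidogen, was at 7.03, 7.07 and 7.10 in hESC and at 11.59, 11.48 and 11.48 in the progenitors. All progenitor arrays stood far above all hESC arrays, with an increase of 4.45 (SE 0.08, adjusted p = 9e-08), or 21.9-fold on the log2(intensity + 16) scale. At a pseudocount of 1 the change was 4.62 for NID2 and 5.01 for EGFLAM. NID1, the more widely expressed nidogen, was at 8.999, 9.10 and 8.84 in hESC and at 10.12, 9.79 and 9.82 in the progenitors, an increase of 0.93 (SE 0.12, adjusted p = 5.16e-04). Another NID1 probe set rose by 0.82, and the third, near background, did not pass (-0.0002, SE 0.11). The NID1 rise was 0.58 averaged over its probe sets, and 1.41 with scaling on hybridization controls. Within an array NID2 minus NID1 moved from a mean of -1.91 to 1.61, a shift of 3.52.

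EGFLAM (pikachurin), a laminin G domain protein that binds dystroglycan, was at 4.71, 4.59 and 4.70 in hESC and at 8.38, 8.51 and 8.41 in the progenitors. EGFLAM rose by 3.77 (SE 0.08, adjusted p = 1.68e-07) from a level close to the floor. NPNT (nephronectin), a basement membrane ligand of the alpha 8 integrin, was at 4.45, 4.41 and 4.65 in hESC and at 7.14, 6.79 and 6.70 in the progenitors, and rose by 2.37 (SE 0.14, adjusted p = 9.13e-06). Its other probe set rose by 0.66, and the mean of both by 1.52.

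SMOC1 and SMOC2 are related calcium-binding proteins of the basement membrane that also modulate growth factor signals. SMOC2 was at 6.39, 6.14 and 6.67 in hESC and at 5.53, 5.29 and 5.43 in the progenitors, and fell by 0.98 (SE 0.14, adjusted p = 0.00105). Its other probe set, at a mean of 4.50 in hESC, differed by 0.04 without passing, and the mean of both by -0.47. SMOC1 was dim on all arrays, at 4.60 to 5.48, and its difference of 0.24 (SE 0.21, adjusted p = 0.412) turned to -0.33 on its other probe set, neither past the threshold.

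Of the adhesive glycoproteins of the interstitial matrix, FN1 and TGFBI rose while SPP1 and POSTN fell. FN1 (fibronectin), the main fibril that migrating mesoderm cells hold on to, was bright in both groups, at 11.25, 11.45 and 11.09 in hESC and at 12.86, 12.69 and 12.72 in the progenitors. FN1 rose by 1.49 (SE 0.11, adjusted p = 3.46e-05), a 2.82-fold increase. All 6 of its other probe sets rose too, by 0.49 to 2.03. TGFBI, a secreted ligand of integrins induced by TGF-beta, was at 7.35, 7.15 and 7.72 in hESC and at 11.52, 10.87 and 10.93 in the progenitors, and rose by 3.70 (SE 0.21, adjusted p = 8.80e-06).

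SPP1 (osteopontin), a phosphorylated adhesive protein of bone and of many epithelia, was at 11.38, 11.91 and 11.46 in hESC and at 9.54, 8.30 and 8.45 in the progenitors. SPP1 fell by 2.82 (SE 0.32, adjusted p = 2.87e-04), and progenitor array 1 was more than 1 log2 unit above the other progenitor arrays. Without that array SPP1 fell by 3.22. Its other probe set fell by 0.38, from a mean of 5.01, and the mean of both by 1.60. POSTN (periostin), a related protein of TGFBI, was lower by a small margin, at 6.91, 6.82 and 7.20 in hESC and 6.68, 6.57 and 6.56 in the progenitors (-0.37, SE 0.12, adjusted p = 0.0317). Another POSTN probe set fell by 0.64 and 2 did not pass. POSTN did not pass with any of progenitor array 2 (-0.35), progenitor array 3 (-0.35), hESC array 1 (-0.41) or hESC array 3 (-0.27) left out, or with progenitor arrays 2 and 3 averaged (-0.35). With scaling on hybridization controls its sign turned (0.04).

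Genes of microfibrils and elastic fibres formed the largest group that moved mostly one way. Of the 13 members on the array 9 rose, 1 fell and 3 missed the threshold (76.9% called against 47.9% of all genes, 69.2% higher against 26.7%), with a median change of 1.37 against 0.04 over all genes. The fibrillins FBN1 and FBN2 build the microfibrils that scaffold elastin and store TGF-beta and BMP ligands, and FBN2 is the more embryonic form. FBN2 was at 9.48, 10.03 and 9.20 in hESC and at 12.08, 12.43 and 12.42 in the progenitors, and rose by 2.74 (SE 0.21, adjusted p = 4.16e-05), with rises of 0.47 and 3.94 on its other probe sets. FBN1 was at 7.84, 8.51 and 7.77 in hESC and at 9.93, 9.59 and 9.63 in the progenitors, and rose by 1.68 (SE 0.21, adjusted p = 4.05e-04). Both other FBN1 probe sets rose, by 1.46 and 1.93. On hESC array 2 the fibrillins stood above the mean of the other hESC arrays, FBN2 by 0.69 and FBN1 by 0.70, and without it the increases were 2.97 and 1.90.

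MFAP4, an elastic fibre protein that binds integrins and collagen, had the largest change in this group. It was at 5.43, 5.09 and 5.17 in hESC and at 8.66, 9.42 and 9.42 in the progenitors, and rose by 3.94 (SE 0.22, adjusted p = 7.29e-06). At a pseudocount of 64 MFAP4 was no longer among the members called at 8-fold or more. MFAP2, a small protein on the surface of microfibrils, was bright in both groups, at 11.20, 11.05 and 11.16 in hESC and at 10.82, 10.60 and 10.65 in the progenitors. MFAP2 fell by 0.45 (SE 0.09, adjusted p = 0.00603), by 0.68 with median centring, and missed the threshold when scaled on hybridization controls (-0.0038, adjusted p = 0.983). MFAP5, its relative, differed by -0.32 (SE 0.18, adjusted p = 0.181) with overlapping groups. It passed with median centring (-0.54), and its sign turned with scaling on hybridization controls (0.04).

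The fibulins differed among themselves. EFEMP2, a fibulin that brings lysyl oxidase to elastin, was at 6.65, 6.19 and 6.63 in hESC and at 9.62, 9.55 and 9.59 in the progenitors. It rose by 3.10 (SE 0.13, adjusted p = 2.43e-06), and its other probe set by 2.84. FBLN2, a fibulin of basement membranes and of heart cushions, rose by 2.31 (SE 0.12), from a mean of 8.58 to 10.89. FBLN1, a fibulin that binds fibronectin and nidogen, rose by 1.20 (SE 0.09), from 9.94 to 11.14. Of the 4 other FBLN1 probe sets 2 rose, by 1.41 and 1.60, and 2 did not pass, at 0.29 and 0.06.

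FBLN5, which supports elastic fibre assembly, was dim and did not pass (-0.01, SE 0.15, adjusted p = 0.973), and its sign turned with scaling on hybridization controls (0.29). EFEMP1, another fibulin, was at 7.93, 7.67 and 8.26 in hESC and at 6.73, 7.65 and 7.60 in the progenitors. The groups did not overlap, but the difference of -0.63 (SE 0.27, adjusted p = 0.092) did not pass, and it was -0.33 without progenitor array 1. EFEMP1 passed with median centring (-0.75).

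EMILIN1 and EMILIN2, glycoproteins at the interface of elastin and microfibrils, rose by 1.42 (SE 0.18, adjusted p = 4.57e-04) and 1.37 (SE 0.14, adjusted p = 1.48e-04). The other EMILIN2 probe sets, at levels of 4.55 and 5.03 in hESC, differed by 0.20 and -0.09 without passing, so that the mean of all 3 rose by 0.50. ELN (elastin) stayed dim, at 4.86, 5.10 and 4.85 in hESC and at 5.77, 5.30 and 5.22 in the progenitors, and rose by 0.49 (SE 0.16, adjusted p = 0.0377). The ELN call was lost without progenitor array 1 (0.32) or 2 (0.56), without hESC array 1 (0.45) or 3 (0.45), at a pseudocount of 64 (0.22), without normalization between arrays (0.40), with median centring (0.26) and on its other probe set (0.30).

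**Figure D3:**
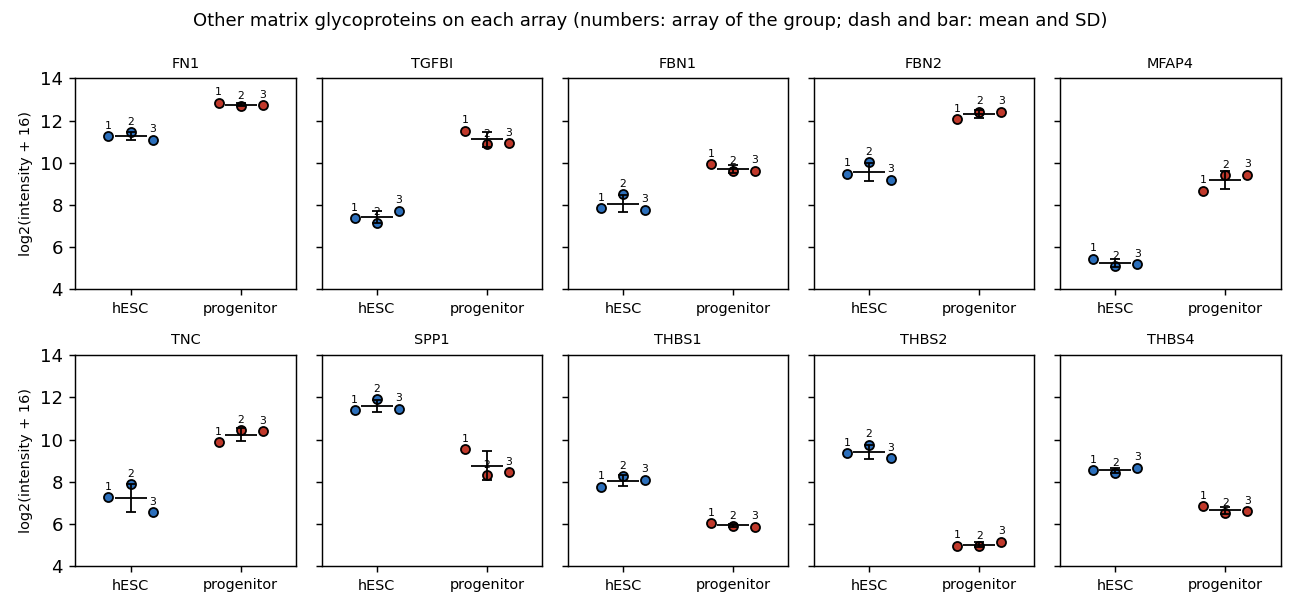
Log2(intensity + 16) levels of 10 matrix genes on each of the 6 arrays after quantile normalization, with numbers for the array within its group, dashes for group means and bars for the SD. FN1, TGFBI, FBN1, FBN2, MFAP4 and TNC lie higher on every progenitor array than on any hESC array, and SPP1, THBS1, THBS2 and THBS4 lower; progenitor array 1 stands apart for SPP1, at 9.54 against 8.30 and 8.45.

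The thrombospondins split. THBS2, a matrix protein that inhibits vessel growth, was at 9.36, 9.76 and 9.13 in hESC and at 4.95, 4.93 and 5.14 in the progenitors. THBS2 fell by 4.41 (SE 0.16, adjusted p = 1.17e-06). Its mean deposited intensity was 689 in hESC and 15.4 in the progenitors, below the progenitor array medians of 31.0 to 31.2, and the size of the change moved with the pseudocount, to -5.29 at 1 and -3.19 at 64. THBS1, which activates latent TGF-beta and binds CD47, was at 7.76, 8.27 and 8.10 in hESC and at 6.01, 5.90 and 5.86 in the progenitors, and fell by 2.12 (SE 0.14, adjusted p = 1.67e-05). Of the 6 other THBS1 probe sets 3 passed, with changes of -0.69, -1.98 and -1.47, and 3 dim ones did not pass. The mean of all of them fell by 0.97.

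THBS4, a thrombospondin of tendon and nerve, was at 8.54, 8.40 and 8.66 in hESC and at 6.83, 6.51 and 6.60 in the progenitors, and fell by 1.89 (SE 0.12, adjusted p = 1.25e-05). THBS3, a relative of THBS4 found in developing skeleton, went the other way, from 5.56, 5.41 and 5.40 to 7.07, 7.14 and 7.02, and rose by 1.62 (SE 0.09, adjusted p = 6.42e-06). None of the 4 had overlapping groups, which was also so for 57.3% of all genes.

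TNC (tenascin C), a protein of moving and remodelling tissue, was at 7.25, 7.89 and 6.56 in hESC and at 9.87, 10.46 and 10.39 in the progenitors. TNC rose by 3.00 (SE 0.33, adjusted p = 2.13e-04) and had the widest spread among the hESC arrays of any member (SD 0.66). Without hESC array 2 the increase was 3.32, and without hESC array 3 it was 2.66. One further TNC probe set rose by 1.15 and the third did not pass (0.18), and the mean of all 3 rose by 1.44. TNR (tenascin R), a tenascin of the nervous system, was dim and did not pass (-0.13, SE 0.16, adjusted p = 0.548), and its sign turned with scaling on hybridization controls (0.14).

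SPARC, a collagen-binding protein, was at 11.62, 11.57 and 11.89 in hESC and at 12.64, 12.59 and 12.59 in the progenitors. It rose by 0.91 (SE 0.10, adjusted p = 2.92e-04), with 1.27 on its other probe set and 1.41 with scaling on hybridization controls. SPARCL1, its relative, was at 6.50, 5.78 and 6.81 in hESC and at 6.95, 7.54 and 7.47 in the progenitors, and rose by 0.96 (SE 0.27, adjusted p = 0.0233). The SPARCL1 call was lost without progenitor array 2 (0.84) or 3 (0.87), without hESC array 1 (1.04), with progenitor arrays 2 and 3 averaged (0.87) and at a pseudocount of 1 (1.12). Its level on hESC array 2 was the lowest of the 6, and without that array the change was 0.68.

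The matrilins, adaptor proteins of cartilage and other filaments, moved in opposite directions. MATN3, found mainly in cartilage, was at 5.22, 5.56 and 5.57 in hESC and at 7.25, 7.34 and 7.42 in the progenitors, and rose by 1.88 (SE 0.12, adjusted p = 1.34e-05). MATN2, the widely expressed matrilin, was at 7.94, 7.63 and 8.18 in hESC and at 6.83, 6.76 and 6.89 in the progenitors, and fell by 1.09 (SE 0.14, adjusted p = 5.42e-04). The other MATN2 probe set, near background at 4.13 in hESC, differed by 0.05 without passing, and the mean of both by -0.52. With scaling on hybridization controls MATN2 fell by 0.61.

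Several probe sets measured 26 of the 42 members. Among the 17 of these that were called, 13 had a further probe set called in the same direction, and none of the members that passed had a probe set called in the opposite one. Of all 96 probe sets 55 were called (57.3%, against 40.2% of all probe sets), 39 higher and 16 lower. Of the 15 members whose mean level lay below 6.83, the median of all genes, 7 did not pass. The other 4 members that did not pass were brighter: LAMA1, LAMC1, LAMC3 and EFEMP1.

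Receptors of these glycoproteins changed in both directions. Of the 25 receptors on the array 8 rose, 9 fell and 8 missed the threshold. This is 68.0% called (47.9% of all genes), 32.0% higher (26.7% of all genes) and 36.0% lower (21.2% of all genes), with a median change of 0.07 against 0.04. ITGA8, the integrin chain that binds nephronectin, was at 4.44, 4.55 and 4.36 in hESC and at 8.96, 8.44 and 8.49 in the progenitors, and rose by 4.18 (SE 0.15, adjusted p = 1.00e-06). ITGA5, the chain of the main fibronectin receptor, rose by 3.22 (SE 0.09), from 7.58, 7.45 and 7.57 to 10.75, 10.65 and 10.87. ITGA7, a laminin receptor chain, fell by 3.62 (SE 0.11), from 10.46, 10.58 and 10.25 to 6.79, 6.75 and 6.89.

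Receptors chosen after their values were seen, as known partners of members above, included further laminin receptors. The integrin chain ITGA6 fell by 2.51 (SE 0.17), from a mean of 11.31 to 8.80, and BCAM, which binds the LAMA5 chain, fell by 2.93 (SE 0.15), from 9.18 to 6.25. Other integrin chains of the list went both ways. ITGA3 fell by 1.02 (SE 0.30), whereas ITGA1 and ITGB1 rose by 0.76 (SE 0.09) and 0.32 (SE 0.10). ITGA2 and ITGB4 did not pass, at -0.44 (SE 0.39) and 0.07 (SE 0.13). ITGA9, an integrin chain that binds tenascin C and osteopontin, rose by 3.10 (SE 0.19), and CD47, a receptor of thrombospondin, fell by 1.30 (SE 0.16). On the mean of their probe sets ITGA8 rose by 1.94, ITGA9 by 1.43 and CD47 fell by 0.54. At a pseudocount of 64 the increase of ITGA8 was 2.67. CD44, a receptor of osteopontin and hyaluronan, and ITGB8, an integrin chain that binds latent TGF-beta, did not pass, at 0.90 (SE 0.38) and 0.36 (SE 0.23). Both passed without progenitor array 1 (0.41 and 0.64) and with scaling on hybridization controls (1.43 and 0.85).

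Other proteins of the basement membrane changed in both directions too. Among 14 on the array 4 rose, 6 fell and 4 missed the threshold. The share called was 71.4% against 47.9% of all genes, with 28.6% higher, near the 26.7% of all genes, and 42.9% lower against 21.2%, and the median change was 0.17. FREM1, an epidermal basement membrane protein, and NTN4, a netrin that binds laminin, rose by 4.30 (SE 0.10) and 3.25 (SE 0.10), NTN4 by 2.05 at a pseudocount of 64. FREM1 was dim in hESC, at a mean of 5.30. In the same list FRAS1 fell by 1.33 (SE 0.18) and FREM2 by 0.48 (SE 0.17). AGRN (agrin), a heparan sulfate proteoglycan that binds laminin, fell by 1.79 (SE 0.22), and by 1.11 averaged over its probe sets. The collagen IV chains COL4A1 and COL4A2 were bright in both groups and did not pass, at 0.12 (SE 0.14) and 0.23 (SE 0.14). The COL4A1 difference was -0.02 without progenitor array 1 and -0.10 with median centring. Both chains passed, at 0.58 and 0.68, with scaling on hybridization controls. The other collagen IV chains of the list were higher, COL4A5 by 0.75 (SE 0.16) and COL4A6 by 0.78 (SE 0.09).

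Among 18 elastic fibre partners on the array 8 rose, 2 fell and 8 missed the threshold. The share called, 55.6%, was near the 47.9% of all genes; 44.4% were higher against 26.7% and 11.1% lower against 21.2%, with a median change of 0.42. The crosslinking enzymes TGM2 (transglutaminase), LOX and LOXL1 (lysyl oxidases) rose by 4.34 (SE 0.16), 3.13 (SE 0.34) and 1.38 (SE 0.21). The other lysyl oxidases of the list differed: LOXL2 rose by 1.07 (SE 0.10) and LOXL3 fell by 0.50 (SE 0.10). LOXL4 did not pass (-0.27, SE 0.31). The LOX levels were 7.88, 9.26 and 9.13 on progenitor arrays 1, 2 and 3. The TGM2 rise was 2.79 at a pseudocount of 64 and 1.38 averaged over its probe sets. FBN3, the third fibrillin, fell by 1.06 (SE 0.17, adjusted p = 0.00174), from 9.85, 9.81 and 9.32 to 8.36, 8.69 and 8.76, against the rises of FBN1 and FBN2, and by 0.56 with scaling on hybridization controls. LTBP1 and LTBP2, which tether latent TGF-beta to microfibrils, did not pass at 0.13 (SE 0.10) and 0.12 (SE 0.15), and LTBP1 passed when its probe sets were averaged (0.51). Scaling on hybridization controls brought both past it (0.59 and 0.55), as did, for LTBP2, leaving out hESC array 2 (0.30), and both turned with median centring (-0.08 and -0.05). LTBP3 did not pass either (-0.04, SE 0.10), whereas LTBP4 rose by 0.62 (SE 0.11).

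**Figure D4:**
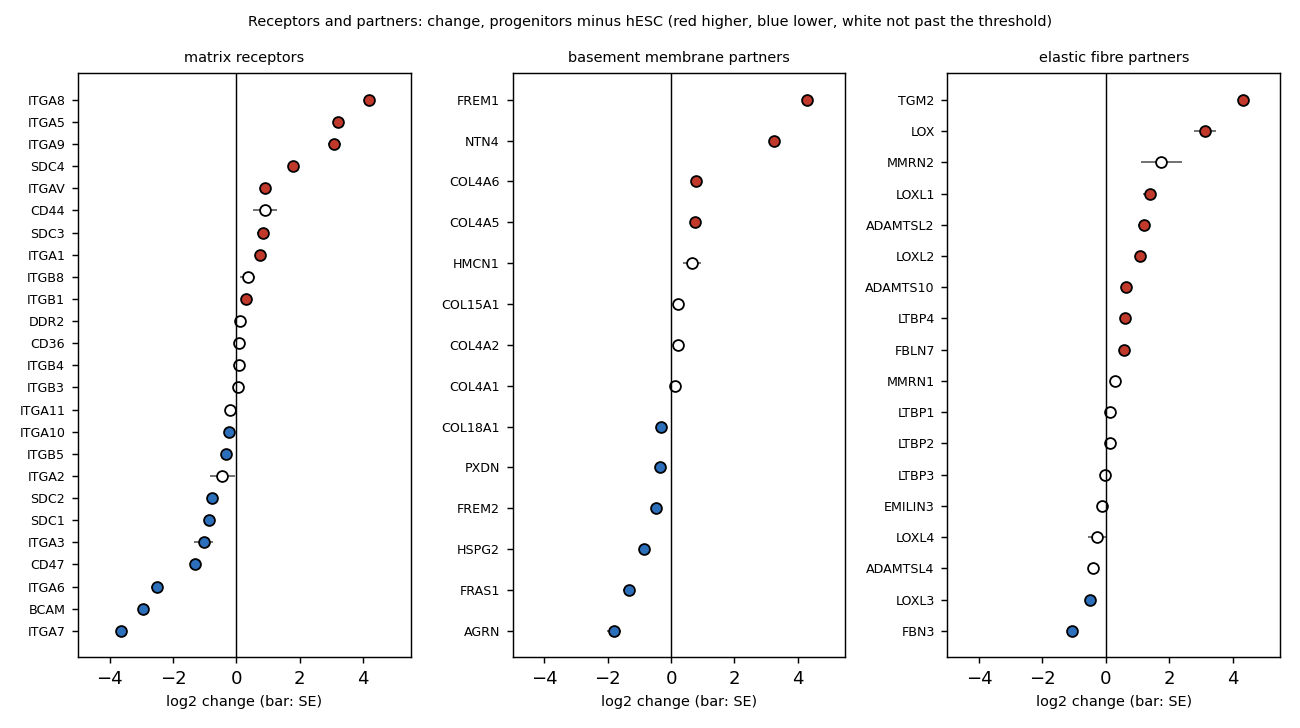
Log2 change, progenitors minus hESC, of 25 matrix receptors, 14 basement membrane partners and 18 elastic fibre partners, with SE bars (n = 3 arrays per group). Red points were called higher, blue points lower and white points did not pass; ITGA8, FREM1 and TGM2 lie at 4.18, 4.30 and 4.34, and ITGA7, AGRN and FBN3 have the lowest values of their panels, -3.62, -1.79 and -1.06.

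The progenitor arrays were not alike. Array 1 differed from the mean of arrays 2 and 3 by more than 0.5 in 8 of 42 members (19.0%), against 6.64% of all genes. SPP1 (1.16), TGFBI (0.62), SMOC1 (0.54) and ELN (0.51) were higher there, and EFEMP1 (-0.90), MFAP4 (-0.76), TNC (-0.56) and SPARCL1 (-0.55) were lower. Over all members the median difference of array 1 was 0.08, and over the 15 endothelial and blood markers it was 1.40, with 14 of them highest on array 1. LAMA4, the laminin chain of vessel walls, was at 5.59 on array 1 against 5.66 and 5.39. The part of endothelial or blood cells in these differences was not tested. Without array 1, 20 members were called higher and 10 lower, 30 of them shared with the full comparison, and the increases of TGFBI, MFAP4 and TNC were 3.51, 4.18 and 3.20.

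**Figure D5:**
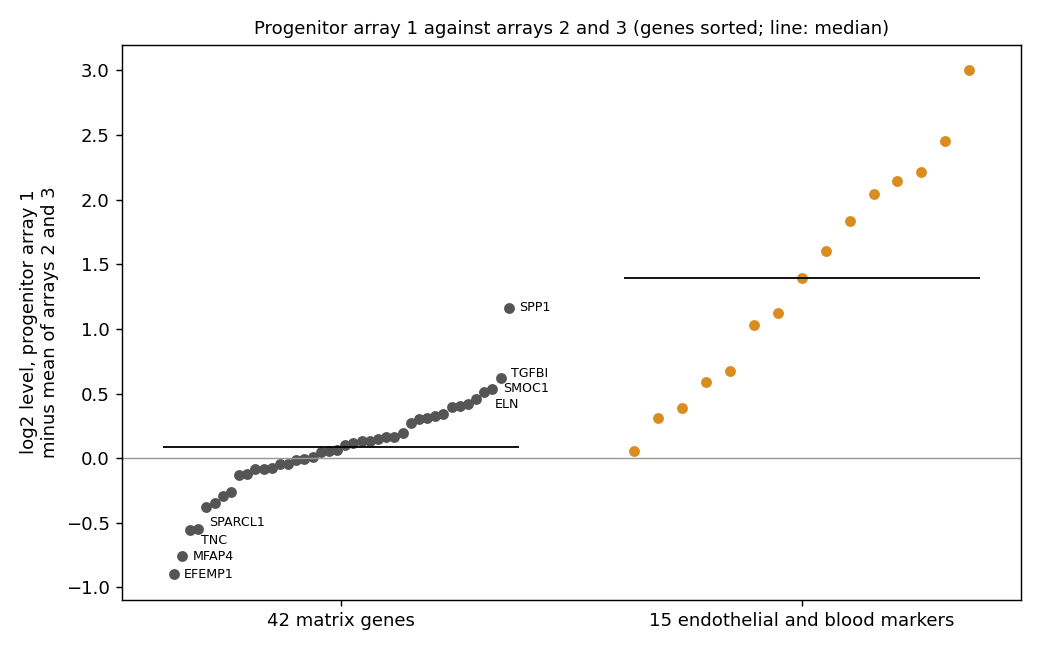
Log2 level on progenitor array 1 minus the mean of progenitor arrays 2 and 3, for each of the 42 matrix genes and the 15 endothelial and blood markers, sorted within each set, with a line at the median. Matrix genes more than 0.5 apart are named, from EFEMP1 at -0.90 to SPP1 at 1.16, and the medians of the sets are 0.08 and 1.40.

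Among the hESC arrays, array 2 differed from the mean of arrays 1 and 3 by more than 0.5 in 6 members (14.3%), against 5.5% of all genes. TNC (0.98), FBN1 (0.70), FBN2 (0.69), MFAP5 (0.56) and THBS2 (0.52) were higher there and SPARCL1 (-0.87) was lower. Without that array the same 31 members were called as with it, 21 higher and 10 lower.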

How the data were processed

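The 6 arrays were analysed from the series' value table. Its values are intensities on a linear scale, as deposited by the authors. How probe sets were summarised, corrected for background and scaled is not given in the sources used here. RNA was extracted with an RNeasy micro kit and biotinylated cRNA made with an amplification kit, per the labels' protocols. Of the deposited values 2.15% equal 1, the most repeated value, and 19 lie below it.

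Of 54675 probe sets, 41097 carry 1 gene symbol, 1801 several and 11777 none in the annotation table, and 41043 symbols were updated through gene identifiers. The 62 array controls were left out. Array medians spanned 0.15 after log2(intensity + 16), above a limit of 0.1, so arrays were quantile-normalized. The brightest probe set stood for a gene. Genes were tested with limma 3.58.1 (R 4.3.3), two-sided, in 2 groups with Benjamini-Hochberg adjustment over 19775 genes and a call at 0.05. The code was tested on simulated data. Arrays of a group correlated across genes at 0.991 to 0.997, those of different groups at 0.904 to 0.920. No label says that samples of a group were separate cultures. The p-values then measure only how these samples vary, which may be technical variation. The number of arrays limits the precision.

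The members, lists and alternatives were chosen with earlier results of these data known. All members could be named. For other lists the rule was the 3 largest changes past the threshold, the largest opposite one and the 2 brightest genes not past it. Further genes of these lists were named after their values were seen. Alternatives were pseudocounts of 1 and 64, other scalings (14 biotin hybridization control probe sets, bioB, bioC and bioD, among them), filters on dim genes, other choices of probe set, a trended variance, the replicate number as a block, leaving out each array, and averaging progenitor arrays 2 and 3. Promoters come from RefSeq (GRCh38.p14). Figures used matplotlib 3.10.9 and Python 3.11.15.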

Additional observations from a re-analysis of the deposited data

How the results depend on the processing

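The main settings called 31 members. With all 42 tested, the alternatives called 28 to 34, 19 to 24 of them higher and 7 to 14 lower. Without probe sets matching several transcripts 36 members were tested and 5 were called lower, and the elastic fibre partners called fell from 10 to 6, as they did without the dimmest 50% of genes (6). ELN, EMILIN2, MATN2 and SMOC2 lost their calls in the former setting. The 5 called members LAMA5, LAMB2, FBLN2, EFEMP2 and SPP1 had no probe set left in that setting and were not tested. AGRN fell by 0.61 and CD47 by 0.43 there. With one array left out, the calls were 28 to 31 members, 19 to 21 higher and 9 to 10 lower, 13 to 19 receptors, 7 to 10 basement membrane partners, 10 to 12 elastic fibre partners and 7905 to 9338 genes in all.

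Signs turned for LAMA1 (0.43 on hybridization controls, 0.13 averaged over probe sets, 0.27 on its other probe set, and -0.078 to 0.063 with one array left out), LAMA2 (0.23 on hybridization controls, 0.026 on another probe set) and LAMA4 (-0.068 without normalization, -0.22 with median centring, -0.10 averaged over probe sets, -0.058 without probe sets matching several transcripts and on the probe set this uses, -0.79 on another probe set, and -0.028 to 0.11 with one array left out). On hybridization controls FBLN5 (0.29), MFAP5 (0.038), TNR (0.14) and POSTN (0.039) turned too, and FBLN5 ranged from -0.11 to 0.15 with one array left out. Without probe sets matching several transcripts, and on the probe set this uses, LAMC3 (-0.026), MATN2 (0.046), SMOC1 (-0.33) and SMOC2 (0.045) turned. SMOC1 turned averaged over probe sets (-0.046), and NID1 (-0.0002) and EMILIN2 (-0.086) each on 1 dim probe set. COL4A1 turned with median centring (-0.096), averaged over probe sets (-0.024) and among values with one array left out (-0.020 to 0.19), and LTBP1 (-0.077) and LTBP2 (-0.050) with median centring. The cause was not tested. Counted over the values of all members under an alternative, 710 kept direction and call, 32 lost the call, 11 gained it and 33 turned sign. Of the values of 20 partner genes, 339 kept both, 10 gained the call and 5 turned sign.

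Among called members 67.7% were higher, 58.8% with median centring and 77.4% on the hybridization controls, whose own level was lower by 0.53 in the progenitors. Same-numbered samples did not deviate together (correlations of -0.02, 0.03 and -0.04). These values show no strong shared deviation and cannot tell whether same-numbered samples had a common origin. With the replicate number as a block, 30 members were called, 21 higher and 9 lower (POSTN lost its call), of 8880 genes in all. Genes near the floor of 4.09 have only a bound on low levels. The alternatives for receptors and partners one by one were chosen after seeing the data.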
